A study of Mus musculus with 6 samples.

Results

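The genes described here encode the molecules of the major histocompatibility complex (MHC) and the proteins that load them with peptide, in ID4-GFP+ spermatogonia from mice with and without ID4 overexpression. Members were taken by symbol from the deposited gene table: every entry that begins with H2-, together with B2m, Tap1, Tap2, Tapbp, Tapbpl, Cd74, Ciita and Nlrc5. This gave 52 of 23355 entries. They were 31 class I heavy chain entries (3 class Ia and 28 nonclassical, or class Ib), 11 class II entries including the DM, DO and invariant chains, 5 entries for the light chain and the loading factors, and 2 transactivators. The other 3 were H2-Ke2 and H2-Ke6, whose products are not MHC chains, and H2-K2, which GENCODE lists as a transcribed pseudogene and which was left unassigned.

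The study sequenced RNA from spermatogonia, the dividing germ cells at the base of the testis tubules, positive for a GFP reporter of Id4, which encodes an inhibitor of bHLH transcription factors. Controls (3 samples) were compared with samples from a germ-cell ID4 overexpression model that expresses ID4 constitutively (3 samples). The reporter is shared by both groups. The strain, the promoter of the transgene and the age of these animals were not given in the sources used here, since the day in the series title is stated for the Id4-Gfp pups. Id4 itself was at 6.37 FPKM in controls and 13.4 FPKM with overexpression, in the direction of the labels.

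MHC class I molecules pair a heavy chain with the light chain beta-2 microglobulin and show peptides from the cytosol, carried into the endoplasmic reticulum by the TAP transporter, to CD8 T cells. Class II molecules are made mainly by professional antigen-presenting cells and show peptides from endosomes to CD4 T cells. Germ cells of the testis are known for low class I display, and interstitial macrophages of the testis are known to carry class II. Interferon-gamma raises most genes of both pathways through transcription factors such as IRF1, and the transactivators NLRC5 and CIITA act on class I and class II promoters respectively.

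Levels are the authors' FPKM (fragments per kilobase of transcript and library size). The table holds 1 value per group, combined by the authors over its 3 samples, so no value below has a replicate SD and the depth of each library is unknown. A gene was called higher or lower where the authors' q was 0.05 or less in their own test. The spread between samples enters only through that test. Nothing in the labels says whether the 3 samples of a group were separate animals, so the p-values may reflect technical spread. In bulk RNA, fewer cells of a type and less RNA per cell cannot be told apart.

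The authors tested 17 of the 52 members. Of these, H2-D1, B2m and H2-Ab1 were higher with overexpression and 0 were lower, so 3 of 17 (17.6%) were called. At the authors' unadjusted p under 0.05, 1 member (H2-Q1) was lower. Of all 10990 tested genes, 17.01% were called in either direction, 9.59% were higher and 7.42% were lower. The total share called among the members was therefore close to the background, and the members as a group were not set apart by it. The tested members had 12 positive and 5 negative log2 fold changes, against 5659 and 5326 among all tested genes. Their median log2 fold change was 0.25, beside 0.01 for all tested genes. The called genes were 1 of each kind: a class Ia heavy chain, the light chain and a class II beta chain.

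**Figure D1:**
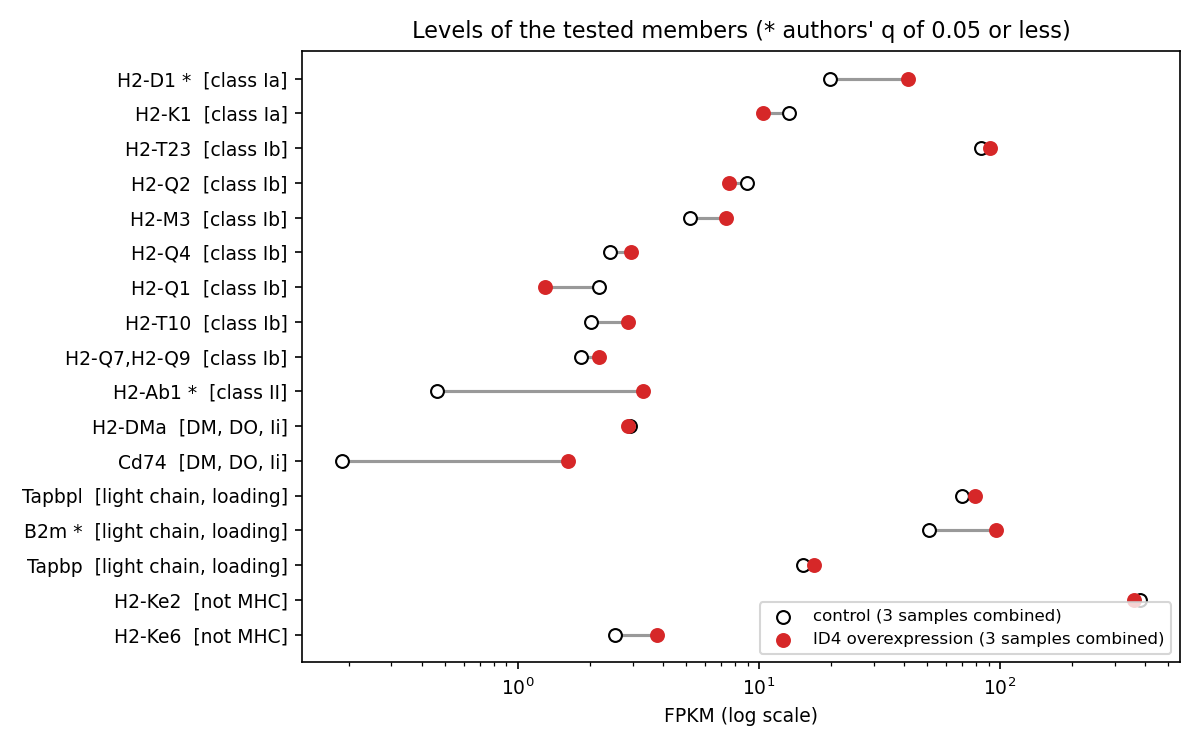
FPKM (log axis) of the 17 tested members in controls (open) and with ID4 overexpression (red), 1 combined value per group, with asterisks on genes whose authors' q was 0.05 or less. H2-D1 moved from 19.8 to 41.7, B2m from 50.7 to 96.4 and H2-Ab1 from 0.464 to 3.31, while H2-K1 (13.4 and 10.45) and H2-T23 (83.2 and 91.1) were not called.

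The class Ia heavy chains, the polymorphic molecules that present peptide to CD8 T cells, did not move together. H2-D1 (chromosome 17, 35262730 to 35267499, plus strand, GRCm38) went from 19.8 FPKM in controls to 41.7 FPKM. It rose 2.10-fold, with q = 0.000835 in the authors' deposited table, where no smaller q occurs. Its log2 fold change of 1.07 lay above those of 95.1% of tested genes. H2-K1 (chromosome 17, 33996017 to 34000347, minus strand) was at 13.4 FPKM in controls and 10.45 FPKM with overexpression. Its log2 fold change was -0.36 (authors' deposited table, q = 0.281). The ratio of H2-D1 to H2-K1 was 1.48 in controls and 3.99 with overexpression, a difference between the genes for which the table allows no test. The sum of both genes went from 33.2 FPKM in controls to 52.1 FPKM.

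The other class Ia entry, H2-L, shares the deposited position of H2-D1. H2-L is a locus of some haplotypes, such as that of BALB/c mice, and is missing from that of C57BL/6 mice, the strain of the reference genome. It was listed at 0.00544 FPKM in controls and 1.30 FPKM with overexpression and was not tested by the authors. It was the 1 untested member with a level of at least 1 FPKM in a group. Reads of this pair may have been divided between the entries. H2-D1 and H2-L summed to 19.9 FPKM in controls against 43.0 FPKM in the overexpression group (2.16-fold), so the H2-D1 difference was as large with both entries counted.

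The 2 class Ia promoters are shown beside those of B2m and H2-T23, because H2-D1 and B2m were called and the other pair was not. Each run is the 250 bases before the RefSeq transcription start (GRCm38.p6), read 5′ to 3′ along the gene, with motif matches in capitals. The windows are chr2:122147437-122147686 (plus strand) for B2m, chr17:35262844-35263093 (plus) for H2-D1, chr17:34000348-34000597 (minus) for H2-K1 and chr17:36032702-36032951 (minus) for H2-T23.
B2m: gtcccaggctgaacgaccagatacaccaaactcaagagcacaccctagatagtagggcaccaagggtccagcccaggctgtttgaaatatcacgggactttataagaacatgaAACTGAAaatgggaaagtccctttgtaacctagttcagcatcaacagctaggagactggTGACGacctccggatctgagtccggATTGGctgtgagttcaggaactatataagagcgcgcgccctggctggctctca
H2-D1: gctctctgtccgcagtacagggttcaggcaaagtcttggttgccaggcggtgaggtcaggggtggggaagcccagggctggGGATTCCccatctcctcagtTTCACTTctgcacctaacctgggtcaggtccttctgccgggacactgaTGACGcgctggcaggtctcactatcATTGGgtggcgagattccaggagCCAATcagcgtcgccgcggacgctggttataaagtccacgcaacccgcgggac
H2-K1: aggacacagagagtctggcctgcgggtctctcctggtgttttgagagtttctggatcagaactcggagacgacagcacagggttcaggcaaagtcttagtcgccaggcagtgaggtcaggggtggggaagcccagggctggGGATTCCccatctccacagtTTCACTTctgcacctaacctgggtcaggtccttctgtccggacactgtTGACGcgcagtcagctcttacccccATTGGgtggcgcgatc
H2-T23: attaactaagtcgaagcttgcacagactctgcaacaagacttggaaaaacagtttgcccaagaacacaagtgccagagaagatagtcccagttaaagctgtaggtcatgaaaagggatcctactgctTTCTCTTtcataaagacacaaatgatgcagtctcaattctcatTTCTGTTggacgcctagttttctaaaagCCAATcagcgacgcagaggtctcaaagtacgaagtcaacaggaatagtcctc

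The motifs searched, on both strands, were GGATTCC (the core of the NF-kB site in class I enhancer A), AANNGAA (the core bound by interferon regulatory factors), TGACG (the core of a cAMP response element, CRE) and CCAAT (bound by NF-Y), and no matches overlapped in these 4 windows. H2-D1 and H2-K1 both hold GGATTCC, at bases -169 to -163 and -109 to -103 from the start. They also both hold AANNGAA on the minus strand, at -149 to -143 and -89 to -83, followed by TGACG and then by CCAAT on the minus strand. H2-D1 has another CCAAT at -53 to -49. Aligned end to end, 166 of 190 aligned bases (87.4%) were identical between the H2-D1 and H2-K1 windows. The motifs held by both windows stood in the same order. Whether the promoters bear on the difference in level was not tested. RefSeq also lists another start for H2-K1, from which the positions shift and a further CCAAT enters the window. The GENCODE span of H2-D1 begins at 35262730, so the whole H2-D1 window lies within it. That of H2-T23 (minus strand) begins at 36032855, within the H2-T23 window. Distances from the GENCODE starts would therefore differ.

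B2m holds AANNGAA at -137 to -131, TGACG at -78 to -74 and a minus-strand CCAAT at -53 to -49. H2-T23 holds AANNGAA on the minus strand at -123 to -117 and at -80 to -74, and CCAAT at -52 to -48. Among 32851 RefSeq promoter windows of this length, GGATTCC was in 1041 (3.17%), TGACG in 5836 (17.8%), CCAAT in 11120 (33.8%) and AANNGAA in 15200 (46.3%). RefSeq windows were matched for 35 symbols that fit the rule, among them H2-T-ps, which is not one of the members. Of these symbols, 11 were tested members. Among these 11, CCAAT and AANNGAA were each counted in 10, TGACG was in 6, and GGATTCC was in H2-K1, H2-D1 and H2-Q7. The 10 leave out H2-DMa, for which a listed window also holds AANNGAA and a minus-strand CCAAT. A match is a description of the letters and not of binding.

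**Figure D2:**
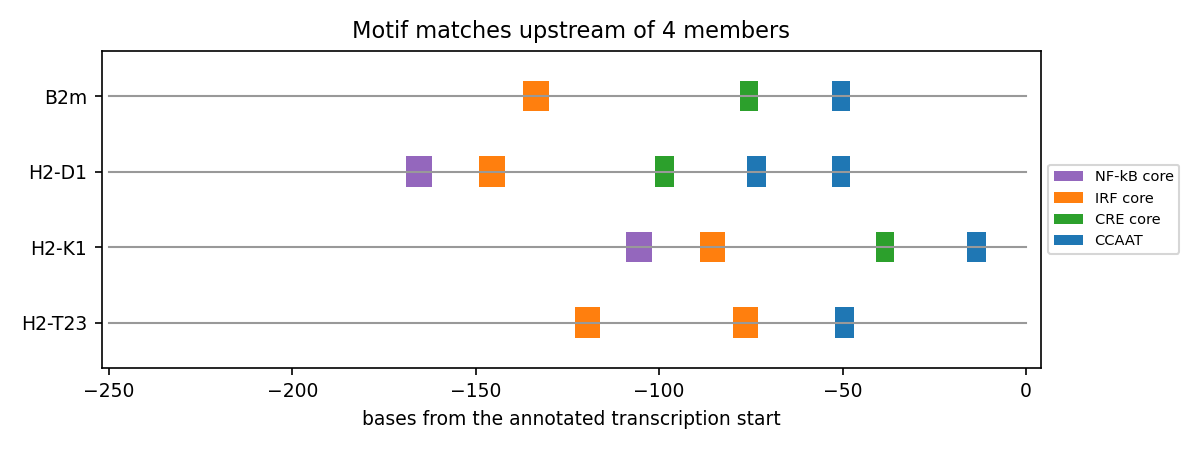
Matches to the 4 motifs (colored blocks) by distance in bases from the annotated transcription start for B2m, H2-D1, H2-K1 and H2-T23. H2-D1 and H2-K1 carry the NF-kB, IRF, CRE and CCAAT letters in the same order, offset by the position of the start.

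The nonclassical heavy chains present restricted peptide sets or bind receptors of natural killer and gamma-delta T cells. Of their 7 tested entries, 0 were called in either direction, beside 17.01% of all tested genes. With only 7 entries, a count of 0 does not set them apart from that share. At the authors' unadjusted p under 0.05, 1 (H2-Q1) was lower. H2-T23, which encodes Qa-1, a ligand of the CD94-NKG2A receptor, was the most abundant heavy chain in both groups, at 83.2 FPKM in controls and 91.1 FPKM with overexpression. It made up 58.0% of the summed class I heavy chain FPKM in controls and 52.8% with overexpression. Its log2 fold change was 0.13 (authors' deposited table, q = 0.688).

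H2-M3, which presents N-formylated peptides of bacteria and mitochondria, was at 5.198 and 7.34 FPKM (authors' deposited table, q = 0.194). H2-T10, a ligand of gamma-delta T cell receptors, was at 2.02 and 2.87 FPKM (q = 0.189). Both lay above their control level by 0.50 and 0.51 on the log2 scale without being called. Among the genes of the Q region, H2-Q2 was at 8.92 and 7.50 FPKM, H2-Q4 at 2.42 and 2.94 FPKM, and the joint entry of H2-Q7 and H2-Q9, which encode Qa-2, at 1.83 and 2.17 FPKM. H2-Q1 had the most negative log2 fold change of the tested members, -0.74, at 2.17 and 1.30 FPKM (authors' deposited table, q = 0.122).

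The remaining 21 class Ib entries were not tested, and all 21 were under 1 FPKM in both groups. They include H2-M1, H2-M9, H2-M11 and the H2-M10 genes, a group known from sensory neurons of the vomeronasal organ. H2-M1, H2-M9 and H2-M10.5 were listed at 0 in both groups. The highest untested class Ib level was 0.819 FPKM, for H2-T9 in controls. Summed over all 31 class I heavy chain entries, FPKM was 143 for controls and 173 for overexpression, a ratio of 1.20.

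Class I genes are near copies of each other, which limits how well reads can be assigned. Of the distinct 50-base windows in the GENCODE M21 transcripts of each gene, 12.8% of those of H2-D1 and 9.63% of those of H2-K1 also occurred in transcripts of another gene. The shares were 13.6% for H2-T23, 26.4% for H2-Q7 and 32.9% for H2-T10, most of the last with H2-T22. They were 0 for B2m, H2-Ab1 and Cd74. H2-L was not found in the GENCODE set, so windows that H2-D1 or H2-K1 share with it are not counted. The read length and the handling of reads with several matches are not given in the sources used here. Levels of the Q and T genes are therefore uncertain, as is the split between H2-D1 and H2-L. Whether the groups differed in haplotype was not tested.

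The light chain rose, and the tested peptide-loading factors among the members were not called. B2m (chromosome 2, 122147686 to 122153083, plus strand) was at 50.7 FPKM in controls and 96.4 FPKM with overexpression. It rose 1.90-fold (authors' deposited table, q = 0.000835). The level of B2m was above those of 81.4% of tested genes in controls and 89.3% with overexpression. Set against the summed class I heavy chains, B2m stood at a ratio of 0.354 in controls and 0.558 with overexpression. Patl2, which overlaps B2m on the opposite strand, was at 3.31 and 2.64 FPKM and was not called; whether strand was used in counting is not stated.

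Tapbp, which encodes tapasin, the bridge between class I molecules and the TAP transporter, was at 15.3 and 16.9 FPKM (authors' deposited table, q = 0.695). Tapbpl, which encodes the tapasin-related peptide editor TAPBPR, was at 69.9 and 78.9 FPKM (q = 0.577) and overlaps Vamp1. Tap1 and Tap2, the subunits of the transporter, were both far lower and not tested. Tap1 was at 0.248 FPKM in controls and 0.438 FPKM with overexpression. Tap2 was at 0.206 and 0.465 FPKM. In both groups, Tapbpl was thus the most abundant of the loading factors among the members, per length of transcript. The transporter genes were under 1 FPKM. The chaperone gene Canx, outside the rule and given below, was at a higher level than Tapbpl in both groups. Nlrc5, the class I transactivator, was at 0.149 and 0.164 FPKM and was not tested.

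Class II genes were near the lower end of the measured range, and 1 of 3 tested entries was higher, beside 9.59% of all tested genes. H2-Ab1, the beta chain of I-A (chromosome 17, 34257689 to 34269419, plus strand), was at 0.464 FPKM in controls and 3.31 FPKM with overexpression. It rose 7.13-fold (log2 fold change 2.83; authors' deposited table, q = 0.0158), more than 99.8% of tested genes. Cd74, the invariant chain that guides class II molecules to endosomes (chromosome 18, 60803848 to 60812652, plus strand), was at 0.188 and 1.62 FPKM. Its log2 fold change of 3.11 was larger than that of H2-Ab1, but the authors' deposited table lists q = 0.367 and it was not called. H2-Ab1 and Cd74 were the only tested members under 1 FPKM in a group, in both cases the controls. A low gene of this kind could be tested mainly through the group where it was high, so the class II count and median are given only as a description.

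The other class II genes were, apart from H2-DMa, not tested and under 1 FPKM in both groups. H2-DMa, a chain of the DM molecule that exchanges peptides on class II, was at 2.91 and 2.88 FPKM (authors' deposited table, q = 0.987) and overlaps Brd2. The partner of H2-Ab1, the alpha chain gene H2-Aa, was listed at 0 in controls and 0.123 FPKM with overexpression and was not tested. H2-Eb1, the beta chain of I-E, was at 0.715 and 0.683 FPKM, and H2-Eb2 at 0.0318 and 0.0805 FPKM. H2-DMb1 was at 0.181 and 0.491 FPKM and H2-DMb2 at 0.167 and 0.0856 FPKM; 22.7% of the windows of H2-DMb1 occur in H2-DMb2. H2-Oa and H2-Ob, which encode the DO molecule that restrains DM, were at or under 0.572 FPKM. H2-Ea-ps, the disabled alpha chain gene of I-E, was listed at 0 in both groups. Ciita, the class II transactivator, was at 0.0409 and 0.108 FPKM and was not tested. Macrophage markers, given below, were higher in the same comparison (14 of 14 tested, beside 9.59% of all tested genes). All 11 class II entries together summed to 5.08 FPKM in controls and 9.87 FPKM with overexpression.

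The 2 entries that carry an H2- symbol without encoding an MHC chain were not called. H2-Ke2, which GENCODE names Pfdn6 and which encodes a prefoldin subunit, was the most abundant entry, at 380.7 and 359 FPKM. H2-Ke6, also known as Hsd17b8, a hydroxysteroid dehydrogenase gene, was at 2.53 and 3.78 FPKM, and 70.5% of its windows occur in Gm20427. Without this pair, 3 of 15 tested members (20.0%) were higher, beside 9.59% of all tested genes. The 3 include H2-Ab1, which could be tested mainly through the group where it was high.

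Most members lie together on chromosome 17. Between the first and the last H2- entry there (33938909 to 37483529, GRCm38), the table holds 46 members and 152 other genes. Of the 72 other genes tested, 9 were higher and 2 lower, so 15.3% were called beside the background of 17.01%. Their median log2 fold change was 0.00 and 36 were positive against 36 negative. The share called among these neighbours of H2-D1 and H2-Ab1 was near the background, and 12.5% were higher, beside 9.59% of all tested genes. Among those neighbours, Aif1, a macrophage gene, had the largest rise, from 2.93 to 17.6 FPKM. Psmb8, which lies between Tap1 and Tap2, rose from 0.840 to 3.07 FPKM, and Tcf19, named after its values were seen, from 11.7 to 23.3 FPKM. As Psmb8 was under 1 FPKM in controls, it could be tested mainly through the group where it was high. The lower genes were 1110038B12Rik (104 to 61.2 FPKM) and the choline transporter-like gene Slc44a4 (5.70 to 2.37 FPKM), also named after their values were seen.

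**Figure D3:**
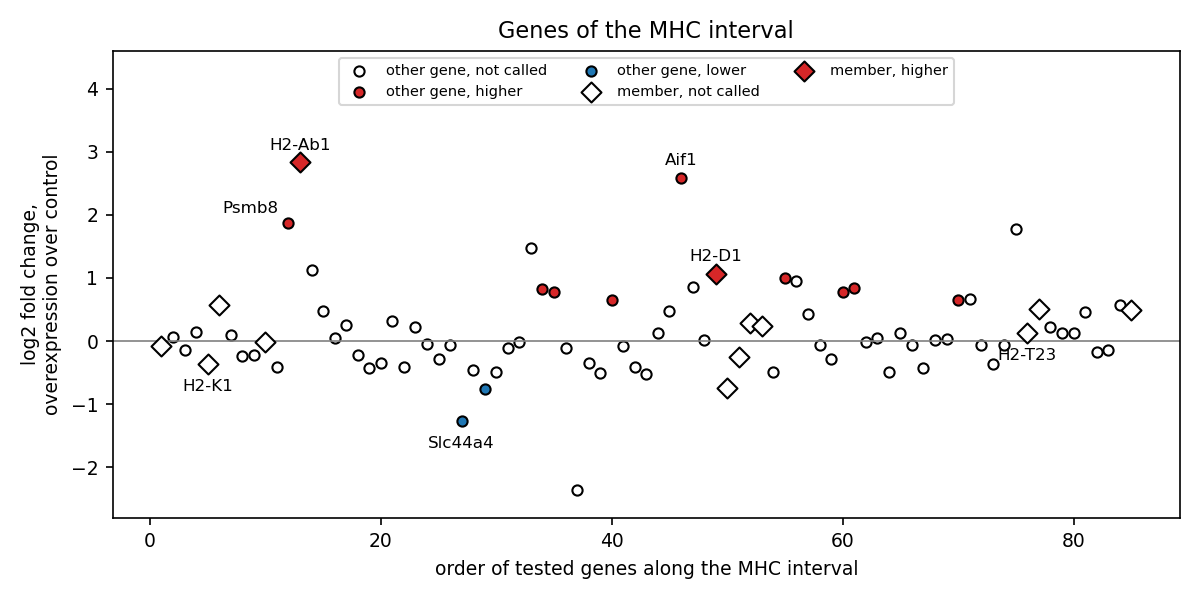
Log2 fold change of tested genes in order along the MHC interval of chromosome 17, with members as diamonds, other genes as circles, higher calls in red and lower calls in blue. H2-Ab1 (2.83) and H2-D1 (1.07) are the called members, and 11 of the 72 other tested genes were called.

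The rest of the antigen presentation pathway was mixed. Of 30 listed genes outside the rule, 27 were tested, 6 were higher and 1 was lower (25.9% called, beside 17.01% of all tested genes; 22.2% higher, beside 9.59%), and the median log2 fold change was -0.08. Among 7 genes of the immunoproteasome, its activators and peptide trimming, 1 was higher and 1 lower (28.6% called). Psmb8, a catalytic subunit of the immunoproteasome, rose 3.66-fold (authors' deposited table, q = 0.0117). Psmb8 was under 1 FPKM in controls and could be tested mainly through the group where it was high. The higher shares that count it are given only as a description. Its partner subunits Psmb9 (8.07 and 6.09 FPKM) and Psmb10 (57.6 and 50.3 FPKM), named after their values were seen, were not called. The proteasome activator gene Psme1 fell from 214 to 150 FPKM (q = 0.0236). Of 4 chaperones of class I assembly, 1 was called (25.0%, beside 17.01% of all tested genes). Canx, which encodes calnexin, rose from 92.8 to 136 FPKM (q = 0.0189) and the other 3 were not called.

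Of 6 genes of endosomal processing, 2 were higher (33.3%, beside 9.59% of all tested genes). Ctss, which encodes cathepsin S, the protease that trims the invariant chain, rose from 4.18 to 17.2 FPKM (authors' deposited table, q = 0.000835); it is also on the macrophage list. Lgmn, which encodes the asparaginyl endopeptidase legumain, rose from 100.05 to 136 FPKM (q = 0.0489). Of 7 factors that bind MHC promoters (RFX, NF-Y and CREB genes), 0 were called in the authors' test, beside 17.01% of all tested genes. At an unadjusted p under 0.05 in that test, 1 was higher. The most abundant, Nfyc, was at 57.6 and 50.5 FPKM and Nfyb at 39.2 and 48.5 FPKM.

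Of 6 class I-like genes outside the MHC, 3 were tested and 2 were higher, beside 9.59% of all tested genes: Fcgrt, the neonatal Fc receptor gene, rose from 6.57 to 19.4 FPKM (authors' deposited table, q = 0.000835), and Hfe, a regulator of iron uptake, from 1.01 to 3.10 FPKM (q = 0.00215). Both proteins pair with beta-2 microglobulin. Procr, named after its values were seen, was at 3.58 and 5.66 FPKM and was not called. Of the untested genes, Cd1d1 was at 1.05 and 0.862 FPKM, Mr1 at 0.153 and 0.226 FPKM, and Azgp1 was listed at 0 in both groups.

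Of 12 tested genes of the interferon-gamma pathway, 3 were higher (25.0%, beside 9.59% of all tested genes) and 0 lower (also 0 lower at an unadjusted p under 0.05 in the authors' test). The log2 fold changes were positive for 6 and negative for 6, with a median of 0.00. Ifngr1, a receptor chain, rose from 18.2 to 30.4 FPKM (authors' deposited table, q = 0.000835). The interferon-induced GTPase genes Irgm1 (14.4 to 27.3 FPKM) and Iigp1 (0.270 to 1.65 FPKM) rose as well. Iigp1 was under 1 FPKM in controls, so it could be tested mainly through the group where it was high. Irf1, a transcription factor gene of the pathway named after its values were seen, was at 80.8 and 66.0 FPKM and was not called. With these 12 genes, the pathway lists came to 39 tested genes, 9 higher (23.1%, beside 9.59% of all tested genes) and 1 lower. The higher counts include Iigp1 and Psmb8, both under 1 FPKM in controls, and are given only as a description.

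**Figure D4:**
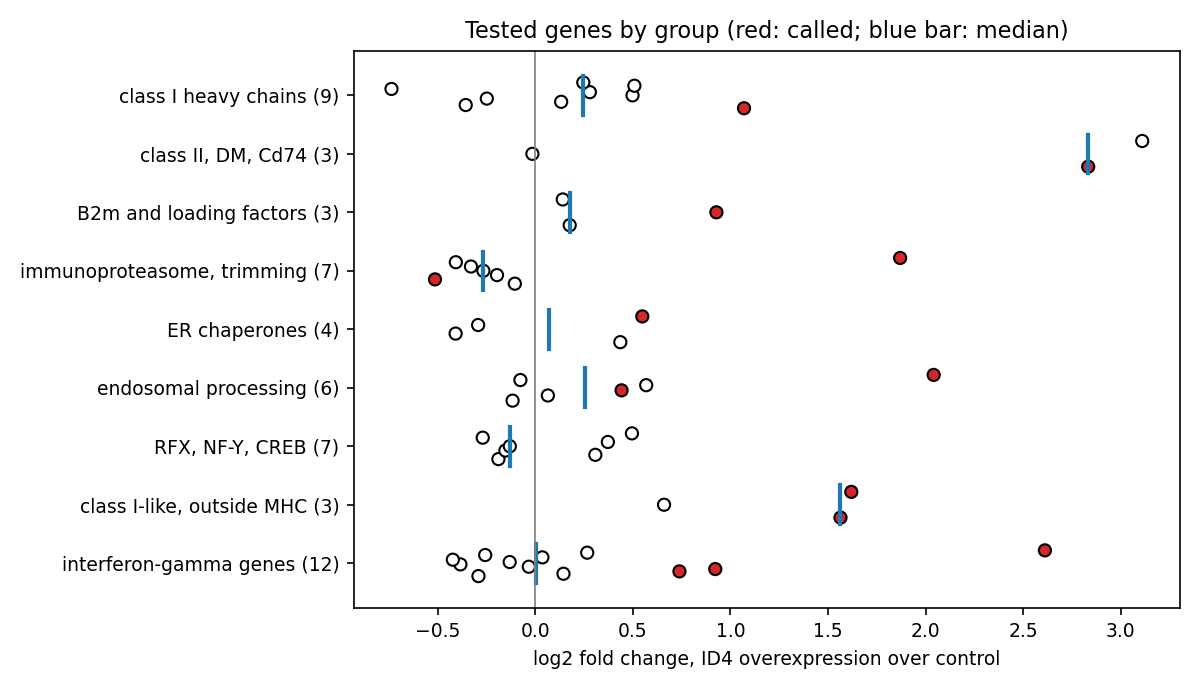
Log2 fold change of every tested gene in each group of members or listed pathway genes, with called genes in red and the group median as a blue bar. Medians were 0.25 for class I heavy chains, 0.18 for B2m and the loading factors and 2.83 for the 3 class II entries, and 0.00 for interferon-gamma genes.

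Markers of macrophages, Sertoli cells and Leydig cells were mostly higher in the same comparison. For comparison with each list, 9.59% of all tested genes were higher. The counts include C1qc, Sox9 and Kitl, under 1 FPKM in controls, which could be tested mainly through the group where they were high. Of the 16 macrophage entries, 14 were tested and all 14 were higher. The macrophage entries summed to 95.5 FPKM in controls against 352 FPKM (3.69-fold). Lyz2 rose from 24.1 to 77.8 FPKM and Fcer1g from 19.6 to 59.2 FPKM. Of 6 tested Sertoli cell markers 5 were higher, with a summed level of 62.7 and 220 FPKM over 10 genes; the most abundant were Clu (38.9 FPKM in controls, 117 FPKM with overexpression) and Cst12 (14.5 FPKM in controls, 65.8 FPKM with overexpression), both higher. Of 5 tested Leydig cell markers 4 were higher, with a sum of 26.2 and 73.0 FPKM over 6 genes; Hsd3b1 rose from 9.78 to 27.9 FPKM and Cyp11a1 from 6.31 to 20.6 FPKM. The H2-Ab1, B2m, H2-D1, Psmb8, Ctss and Fcgrt differences stood beside these, and the part of other cells in them was not tested.

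The dendritic cell, B cell, and T and NK cell lists had low summed levels. The 7 dendritic cell markers summed to 1.86 FPKM in controls and 1.93 FPKM with overexpression, and 0 were tested by the authors. Of these, Itgax and Cd209a were listed at 0 in controls and Clec9a in both groups. The 5 B cell markers summed to 2.80 and 4.68 FPKM, mostly Cd79a (2.42 and 3.94 FPKM, not called), and Pax5 was listed at 0 in both groups. The 7 T and NK cell markers summed to 1.70 and 1.51 FPKM, with Cd8a and Klrb1c at 0 in both groups. The 7 endothelial markers summed to 23.3 and 17.4 FPKM, mostly Egfl7, the 1 tested, which fell by 0.62 on the log2 scale. Without Egfl7, a sum added after seeing the data, the other 6 came to 2.30 and 3.71 FPKM, in the opposite direction. The 8 germ cell markers, which check the labelled cells, summed to 2445 and 2105 FPKM. Of these, 0 were higher (also 0 at an unadjusted p under 0.05 in the authors' test) and 1 was lower. That was 12.5% called, beside 17.01% of all tested genes. Dazl, an RNA-binding protein gene of germ cells, was at 918 and 790.5 FPKM and was not called, and Uchl1 fell from 696 to 464 FPKM.

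**Figure D5:**
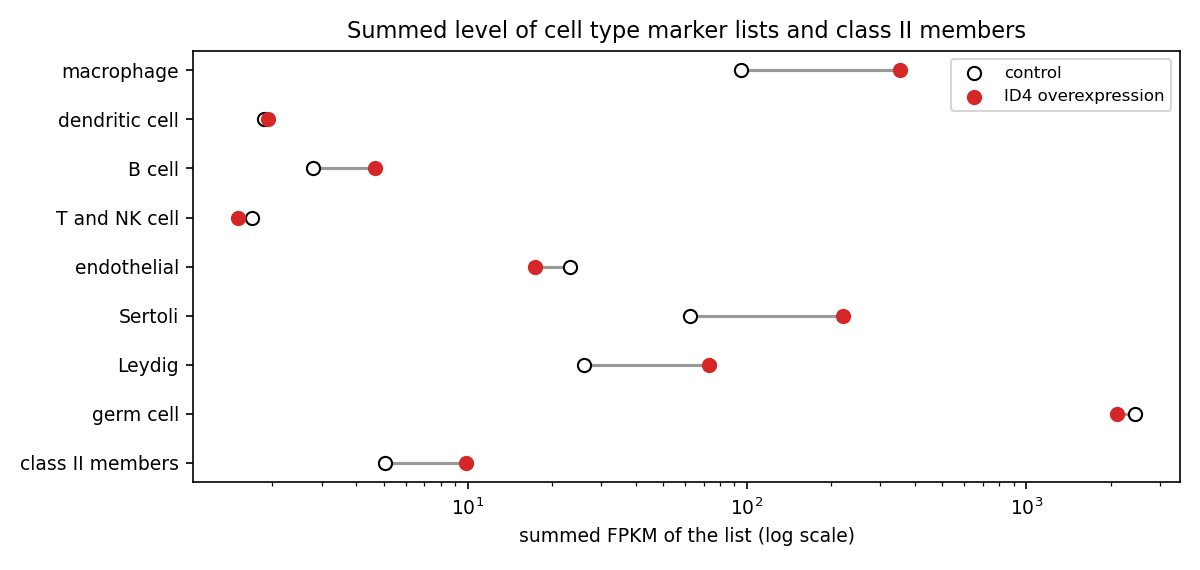
Summed FPKM (log axis) of marker lists and of the 11 class II entries in controls (open) and with ID4 overexpression (red), 1 combined value per group. Macrophage markers summed to 95.5 and 352, class II entries to 5.08 and 9.87, and dendritic cell markers to 1.86 and 1.93.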

How the data were processed

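RNA was extracted with Trizol and primed with oligo d(T), per the labels' protocols. The submitters' processing notes name TopHat, Cufflinks and the mm9 build, with no versions. The deposited table gives the authors' FPKM per gene and group (3 samples each, already combined), with the authors' p-value and q-value; the columns are those of a Cuffdiff gene table, per the file headers. It has 23355 entries and 1 emptied line; 10990 were tested. The q-values differed by at most 4.77e-05 from a Benjamini-Hochberg adjustment over tested genes. Positions match GRCm38: 21426 of 21624 symbols (99.1%) overlapped the GENCODE M21 gene of the same name.

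Fold changes were recomputed as overexpression over control FPKM without a pseudocount, because 661 deposited log2 cells hold error text. No model was refitted. The counting code was tested on simulated data. Promoters came from RefSeq (GRCm38.p6), and windows of 50 bases from GENCODE transcripts. Python 3.11.15, pandas 2.3.3 and Biopython 1.88 were used. Every tested member was named; of each pathway list, up to 4 called genes with the largest change, or the 2 most abundant tested where none was called. Members, lists and motifs were chosen with earlier results of these data known. The motifs are shortened forms of those searched first, whose matches are not given.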

Additional observations from a re-analysis of the deposited data

How the results depend on the processing

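The 3 higher members kept a count within 1.5 times under q thresholds of 0.01 and 0.1, a minimum of 1 FPKM and a minimum absolute log2 fold change of 1. At an authors' q of 0.01, class II had 0 higher members (H2-Ab1 was lost), and the pathway lists had 3 higher and 0 lower genes. At q of 0.1, 5 other genes of the MHC interval were lower. With a minimum absolute log2 fold change of 1, B2m was lost and the assembly group had 0 higher members, the pathway lists 0 lower, the MHC interval 2 higher and 1 lower, and the interferon-gamma list 1 higher. The class II median of 2.83 became 1.14 with a pseudocount of 1 FPKM and 2.58 with 0.1 FPKM, as adding a constant shrinks folds of low genes. The other 59 values for counts and medians stayed within 1.5 times, or within 0.1 for medians. Log2 fold changes were recomputed for the 17 tested members with each pseudocount and with the median subtracted, and for H2-D1 summed with H2-L. Untested members were not recomputed. All 52 of these values kept their sign. A constant added to both groups cannot change a sign, so under the pseudocounts this was fixed in advance. Subtracting the median of all tested genes (0.0149) could turn only smaller positive values, and no tested member had one. The log2 ratio of the summed endothelial markers was -0.42 and turned to 0.69 without Egfl7. Leaving out Egfl7, summing H2-D1 with H2-L and leaving out H2-Ke2 and H2-Ke6 were added after seeing the data. No paired analysis was possible because the table holds 1 value per group, and leaving out samples was not run for the same reason. Depth is unknown, and levels under 1 FPKM carry no interval.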

Other observations

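Immune ligands and receptors of the cell surface were looked up after the values above were seen. Among 9 costimulatory and coinhibitory ligand genes, 4 were tested by the authors, 2 were higher and 1 was lower. The share called was 75.0% of these 4, beside 17.01% of all tested genes. Cd86, a costimulatory ligand of antigen-presenting cells, rose from 0.674 to 2.16 FPKM (authors' deposited table, q = 0.00153), and the adhesion molecule gene Icam1 from 3.91 to 10.099 FPKM (q = 0.000835). Cd274, which encodes the coinhibitory ligand PD-L1 and is an interferon-gamma target, fell from 11.5 to 8.09 FPKM (q = 0.0487). Cd80 and Cd40 were under 1 FPKM in both groups and were not tested.

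Lilrb4, an inhibitory receptor gene of myeloid cells, rose from 0.835 to 5.25 FPKM (authors' deposited table, q = 0.000835), and it was the 1 tested gene of 7 entries for receptors of class I molecules. The natural killer receptor genes Klrc1 and Klrd1, whose product CD94-NKG2A binds Qa-1, were listed at 0 in both groups. The stress-induced class I-like ligands of NKG2D had 2 tested genes, Raet1d (3.86 and 2.87 FPKM) and Raet1e (3.42 and 1.77 FPKM), and neither was called. Ulbp1, of the same family, was at 0.230 FPKM in controls and 1.30 FPKM with overexpression and was not tested.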
